A study of Homo sapiens with 14 samples.

Results

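DNA replication licensing and fork genes encode the proteins that mark replication origins, load and activate the replicative helicase and copy DNA at the fork. The group holds 48 genes, listed by gene symbol for their role, with no threshold on a measured value, among 17810 genes counted in one table and 19143 in the other. Of these, 47 were in the first table and 48 in the second, and every one of them passed the filter on low counts (RFC2 was not analysed here in the first table). All libraries come from CHP-134, an established MYCN-amplified human neuroblastoma line that makes large amounts of N-MYC. In the first experiment, lines carrying a Tet-inducible lentiviral vector (selected with G418) were given 1 µg/ml doxycycline for 3 days to express EGFP (3 libraries) or OmoMYC (3 libraries), a mutated MYC dimerization domain that blocks binding of MYC proteins to their partners. The EGFP and OmoMYC lines were engineered separately, so a difference between the lines and an effect of the transgene cannot be told apart. In the second experiment, parental CHP-134 cells without such a vector were given DMSO (4 libraries) or 500 nM dTAG47 (4 libraries) for 18 h. dTAG47 is a degrader of proteins that carry an engineered tag, and its use in untagged parental cells served as a control.

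The total per library ran from 28060817 to 38358128 counts in the first experiment and from 40861430 to 53451641 in the second, and a member had at least 458 counts in every library of the first and at least 859 in every library of the second. Counts assigned to MYC, which include any reads of the OmoMYC transgene, had a mean of 522 ± 7.85 CPM (counts relative to the scaled library total) in the OmoMYC line and of 0.610 ± 0.0684 CPM in the EGFP line (SD, n = 3). Of 6 markers of adrenergic neuroblastoma, GATA3, HAND2, PHOX2A and ISL1 had means from 303 (GATA3) to 30.0 CPM (ISL1) in the EGFP line, while TH and DBH, which encode enzymes of catecholamine synthesis, were at 0.238 and 0.405 CPM. Of these 6, ISL1 (log2 fold change 0.75, adjusted p = 3.16e-05), TH (1.66, adjusted p = 0.00500) and DBH (1.49, adjusted p = 0.00508, edgeR) were induced with OmoMYC, TH and DBH to means of 0.769 and 1.16 CPM. GATA3 (0.09), HAND2 (0.09) and PHOX2A (-0.05) were not called. The summed level of 8 markers of other cell types was 62.1 to 69.0 CPM with EGFP and 45.0 to 49.9 CPM with OmoMYC, nearly all of it PDGFRB and COL1A2, with PECAM1, CD68 and S100B at or near 0 CPM. Of the 5 tested, PDGFRB, COL1A2 and PTPRC were suppressed, as were most members below, while EPCAM (mean 1.10 CPM with EGFP and 1.26 with OmoMYC) and CDH5 (0.240 and 0.291 CPM) were not called. The part of the markers of either kind in the results was not tested. EGFP replicates 1 and 3 stood furthest apart among replicates, where sampling noise alone would give a value near 1 for chi-square over degrees of freedom and these libraries gave 44.3, against 2.86 to 8.94 between OmoMYC replicates.

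Replication starts at origins bound by the origin recognition complex, which with CDC6 and CDT1 loads a double hexamer of MCM2 to MCM7 in G1. In S phase, the CDC7-DBF4 kinase and cyclin-dependent kinases turn the loaded ring into an active helicase by adding CDC45 and the GINS complex, and polymerases alpha, epsilon and delta, the PCNA clamp and RPA then act at each fork. Transcription of many of these genes rises toward S phase under E2F factors, and MYC proteins are known to bind E-box sequences at many growth genes.

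To ask how inhibition of N-MYC affects this machinery, members were compared between OmoMYC and EGFP. Of the 47 members tested, 39 were suppressed by OmoMYC at an FDR below 0.05 (edgeR's quasi-likelihood test, adjusted over all 13803 genes), and none was induced. Among all genes tested, 25.7% were suppressed and 27.3% were induced. Every member was lower with OmoMYC (with scaling by library size alone, every one but POLD2, at 0.00138), and the median log2 fold change was -0.36 among members and 0.01 among all genes tested. Most of the changes were moderate: 15 of the 47 members were suppressed by more than 1.5-fold, against 7.62% of all genes tested. In 40 members each OmoMYC library lay below each EGFP library, as was the case for 30.3% of all genes tested. In such bulk samples, fewer cells of a kind, such as cells in S phase, and less RNA per cell cannot be told apart. Leaving out any 1 library, 34 of the 39 stayed suppressed, whereas ORC4, CDC45, GINS4, POLE and TIPIN lost the call without at least OmoMYC replicate 1.

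**Figure D1:**
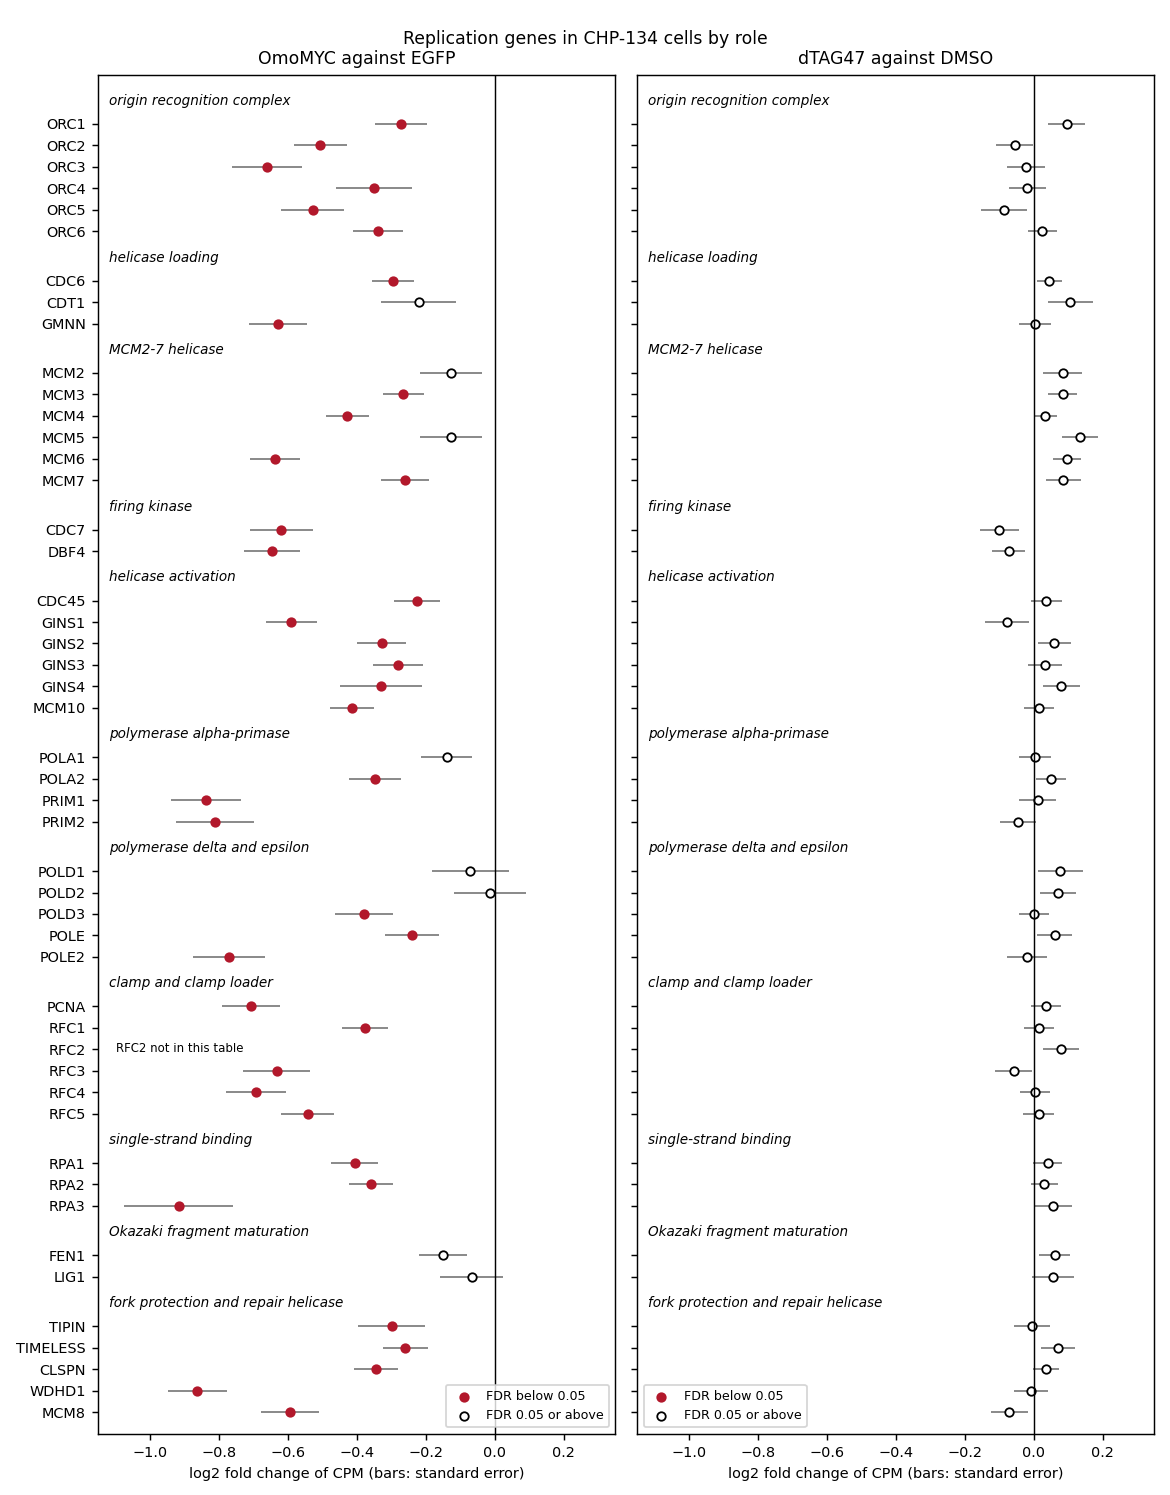
Log2 fold change of each member (x axis) with its standard error, for OmoMYC against EGFP on the left and dTAG47 against DMSO on the right, with genes in rows by role. Filled points passed an FDR of 0.05. On the left all 47 points lie below 0 (POLD2 is at 0.00138 with scaling by library size alone) and 39 are filled, and on the right the points lie between -0.10 and 0.13 and none is filled.

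The members at either end of the range act at the fork. RPA3 (ENSG00000106399.7, chromosome 7 of hg19 from 7676149 to 7758238) is the smallest subunit of replication protein A, which coats single-stranded DNA. In EGFP replicates 1 to 3 its level was 52.1, 38.5 and 31.4 CPM, and in OmoMYC replicates 1 to 3 it was 22.6, 22.6 and 19.4 CPM. All OmoMYC libraries were below the EGFP libraries, which themselves differed by a wide margin, and the mean went from 40.7 ± 10.5 to 21.5 ± 1.84 CPM (SD, n = 3 each), which is -0.92 ± 0.16 as log2 fold change with its standard error (edgeR, adjusted p = 0.000839). The gene overlaps UMAD1 on the opposite strand, and the counting is not stated to use strand, so reads of the pair may not be separated. Of the 48 members, 24 overlap another annotated gene and 10 have pseudogenes by symbol. Only some of these are named in what follows. WDHD1 (ENSG00000198554.7, chromosome 14 of hg19 from 55405667 to 55493823), also known as AND-1, links the helicase to polymerase alpha. Its libraries gave 145, 126 and 117 CPM with EGFP (replicates 1 to 3) and 70.5, 73.6 and 69.4 CPM with OmoMYC. The groups were far apart, and the mean went from 129 ± 13.9 to 71.1 ± 2.17 CPM (SD, n = 3 each), which is -0.86 ± 0.09 as log2 fold change with its standard error (edgeR, adjusted p = 2.44e-05). PRIM1 (ENSG00000198056.9, chromosome 12 of hg19 from 57124222 to 57146158) is the catalytic primase subunit that writes the RNA primer of each new strand. The gene overlaps NACA on the same strand and HSD17B6 on the opposite strand, so its counts may be shared. Replicates 1 to 3 had 66.4, 57.1 and 52.2 CPM of PRIM1 with EGFP and 34.1, 34.2 and 29.9 CPM with OmoMYC. The groups did not overlap, and the mean went from 58.6 ± 7.20 to 32.8 ± 2.48 CPM (SD, n = 3 each), which is -0.84 ± 0.10 as log2 fold change with its standard error (edgeR, adjusted p = 8.97e-05). At the other end stood POLD2, LIG1 and POLD1. POLD2 (ENSG00000106628.6, chromosome 7 of hg19 from 44154230 to 44163957) encodes the second subunit of polymerase delta. For POLD2, EGFP replicates 1 to 3 held 127, 159 and 174 CPM and OmoMYC replicates 153, 145 and 158 CPM. The OmoMYC values lay inside the EGFP range, and the mean went from 153 ± 24.3 to 152 ± 6.56 CPM (SD, n = 3 each), which is -0.01 ± 0.10 as log2 fold change with its standard error (edgeR, adjusted p = 0.928). LIG1 (ENSG00000105486.9, chromosome 19 of hg19 from 48618702 to 48673860) is the ligase that seals Okazaki fragments. LIG1 stood at 28.6, 30.5 and 33.9 CPM in EGFP replicates 1 to 3 and at 30.9, 27.3 and 30.6 CPM in OmoMYC replicates 1 to 3. The groups overlapped, and the mean went from 31.0 ± 2.67 to 29.6 ± 2.02 CPM (SD, n = 3 each), which is -0.07 ± 0.09 as log2 fold change with its standard error (edgeR, adjusted p = 0.562). POLD1 (ENSG00000062822.8, chromosome 19 of hg19 from 50887461 to 50921275) is the catalytic subunit of polymerase delta. In EGFP replicates 1 to 3 its level was 47.5, 55.9 and 66.6 CPM, and in OmoMYC replicates 1 to 3 it was 54.2, 51.5 and 56.2 CPM. Here EGFP replicate 1 was below every OmoMYC library and EGFP replicate 3 above them all, and the mean went from 56.7 ± 9.54 to 54.0 ± 2.34 CPM (SD, n = 3 each), which is -0.07 ± 0.11 as log2 fold change with its standard error (edgeR, adjusted p = 0.616). Without EGFP replicate 3, the log2 fold changes of POLD1 and POLD2 were 0.03 and 0.06, and without EGFP replicate 1 both were called suppressed, at -0.20 (adjusted p = 0.0354) and -0.15 (adjusted p = 0.0470, edgeR).

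Promoter sequence was compared with these extremes. RefSeq promoter windows of GRCh38.p14, from 250 bases before to 50 bases after the annotated start, were at hand for 42 of the 48 members, and where a gene had several the most upstream was taken. Words of 4 known elements were searched on both strands: the E-box CACGTG bound by MYC proteins, the E2F element (TTTCCCGC, TTTCGCGC, TTTGCCGC or TTTGGCGC), the CCAAT box CCAAT and the cell cycle genes homology region (TTTGAA or TTCGAA). An E2F word was in 19 of the 42 promoters (45.2%), against 3.34% of 27303 promoters of all genes and 5.23% of the 10214 promoters of genes tested. The E-box word was in 7 member promoters (16.7%, against 7.41% of all and 9.99% of tested genes), the CCAAT word in 23 (54.8%, against 35.7% and 36%) and the cell cycle genes homology word in 2 (4.76%, against 16.7% and 11.1%). Members with an E2F word had a median log2 fold change of -0.33 with OmoMYC (n = 19), and those without one had a median of -0.41 (n = 22), with ranges of -0.77 to -0.07 and -0.86 to -0.01 that overlap almost entirely. With and without an E-box word the medians were -0.26 (n = 7) and -0.36 (n = 34). For the CCAAT word they were -0.345 (n = 23) and -0.44 (n = 18). For the cell cycle genes homology word they were -0.64 (n = 2) and -0.348 (n = 39). These differences were not tested. The promoters shown are those of the 3 most and 3 least suppressed members, as far as the table holds them, and of MCM6 and MCM7, added after the matches were seen because they held the most words. Matched words are in capitals, written as they read on the printed strand. The E2F words of MCM6 overlap in pairs, and the last E2F and CCAAT words of MCM7 share a base.
WDHD1, chr14:55027050-55027349 on the minus strand: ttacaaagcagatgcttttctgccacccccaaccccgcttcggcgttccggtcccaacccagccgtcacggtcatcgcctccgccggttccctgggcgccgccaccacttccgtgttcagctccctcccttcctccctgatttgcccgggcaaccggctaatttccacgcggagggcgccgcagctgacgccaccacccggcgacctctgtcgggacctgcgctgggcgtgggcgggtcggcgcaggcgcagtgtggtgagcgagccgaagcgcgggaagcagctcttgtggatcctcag
PRIM1, chr12:56752274-56752573 on the minus strand: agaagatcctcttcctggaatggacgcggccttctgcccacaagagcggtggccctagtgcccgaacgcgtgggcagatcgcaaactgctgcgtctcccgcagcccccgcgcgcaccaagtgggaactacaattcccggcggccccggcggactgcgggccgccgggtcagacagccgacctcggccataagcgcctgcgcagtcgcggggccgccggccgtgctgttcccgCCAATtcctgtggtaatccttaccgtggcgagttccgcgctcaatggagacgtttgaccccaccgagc
POLD2, chr7:44123499-44123798 on the minus strand: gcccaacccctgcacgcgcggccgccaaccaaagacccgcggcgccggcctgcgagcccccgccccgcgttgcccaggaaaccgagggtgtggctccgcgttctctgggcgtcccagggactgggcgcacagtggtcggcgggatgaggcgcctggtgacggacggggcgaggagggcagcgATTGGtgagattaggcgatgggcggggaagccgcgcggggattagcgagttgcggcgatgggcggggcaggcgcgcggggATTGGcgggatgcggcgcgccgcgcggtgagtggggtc
LIG1, chr19:48170295-48170594 on the minus strand: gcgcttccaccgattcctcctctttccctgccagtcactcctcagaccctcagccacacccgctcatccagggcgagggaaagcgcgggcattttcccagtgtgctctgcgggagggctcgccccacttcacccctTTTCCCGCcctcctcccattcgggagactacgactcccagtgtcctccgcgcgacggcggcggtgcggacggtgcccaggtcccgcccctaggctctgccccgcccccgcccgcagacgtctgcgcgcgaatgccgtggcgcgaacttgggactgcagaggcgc
POLD1, chr19:50384073-50384372 on the plus strand: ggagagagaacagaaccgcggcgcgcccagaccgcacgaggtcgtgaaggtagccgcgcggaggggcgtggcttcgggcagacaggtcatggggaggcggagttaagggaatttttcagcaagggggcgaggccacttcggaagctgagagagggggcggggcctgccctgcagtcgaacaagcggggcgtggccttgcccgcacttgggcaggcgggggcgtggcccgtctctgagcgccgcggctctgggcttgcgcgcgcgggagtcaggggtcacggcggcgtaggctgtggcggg
MCM6, chr2:135876394-135876693 on the minus strand: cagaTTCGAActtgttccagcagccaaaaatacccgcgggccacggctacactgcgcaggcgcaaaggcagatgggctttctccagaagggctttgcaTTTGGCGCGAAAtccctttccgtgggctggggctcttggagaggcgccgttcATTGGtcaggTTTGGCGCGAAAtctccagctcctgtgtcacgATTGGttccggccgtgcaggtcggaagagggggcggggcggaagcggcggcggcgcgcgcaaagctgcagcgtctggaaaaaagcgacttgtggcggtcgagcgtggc
MCM7, chr7:100101348-100101647 on the minus strand: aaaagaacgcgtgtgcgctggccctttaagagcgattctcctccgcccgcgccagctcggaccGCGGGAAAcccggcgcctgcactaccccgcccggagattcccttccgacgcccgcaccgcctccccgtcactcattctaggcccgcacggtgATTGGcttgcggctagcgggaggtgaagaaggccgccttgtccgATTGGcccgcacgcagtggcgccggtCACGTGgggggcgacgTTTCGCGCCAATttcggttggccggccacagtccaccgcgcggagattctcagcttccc
The WDHD1 window, of a gene that was among the 3 most suppressed, and that of POLD1, which was not called, held none of the words searched. Other forms of the 4 elements were not searched. A match describes letters in a window and is not a bound site.

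Origin recognition genes were all suppressed by OmoMYC, 6 of 6, with log2 fold changes from -0.66 to -0.27. ORC3 (ENSG00000135336.10, chromosome 6 of hg19 from 88299785 to 88377171), a subunit of the complex core, changed most. Its libraries gave 88.8, 82.7 and 69.0 CPM with EGFP (replicates 1 to 3) and 50.3, 54.8 and 46.9 CPM with OmoMYC. The groups were separate, and the mean went from 80.2 ± 10.1 to 50.7 ± 3.98 CPM (SD, n = 3 each), which is -0.66 ± 0.10 as log2 fold change with its standard error (edgeR, adjusted p = 0.000413). ORC1 (ENSG00000085840.8, chromosome 1 of hg19 from 52838501 to 52870095), whose ATPase activity loads the helicase, changed least. Replicates 1 to 3 had 54.9, 58.9 and 61.0 CPM of ORC1 with EGFP and 49.9, 49.1 and 45.7 CPM with OmoMYC. Its groups were separate by a smaller margin, and the mean went from 58.3 ± 3.09 to 48.2 ± 2.21 CPM (SD, n = 3 each), which is -0.27 ± 0.08 as log2 fold change with its standard error (edgeR, adjusted p = 0.0118). ORC5 (-0.53), ORC2 (-0.51), ORC4 (-0.35) and ORC6 (-0.34) lay between them on the log2 scale. ORC4 lost the call without OmoMYC replicate 1 or 3, with an adjusted p of up to 0.0681 (edgeR).

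Of the 3 helicase loading genes, CDC6 and GMNN were suppressed. GMNN (ENSG00000112312.5, chromosome 6 of hg19 from 24775159 to 24786327) encodes geminin, the inhibitor of CDT1. For GMNN, EGFP replicates 1 to 3 held 72.6, 68.9 and 64.3 CPM and OmoMYC replicates 45.6, 47.2 and 40.3 CPM. The groups did not overlap, and the mean went from 68.6 ± 4.14 to 44.4 ± 3.61 CPM (SD, n = 3 each), which is -0.63 ± 0.08 as log2 fold change with its standard error (edgeR, adjusted p = 0.000179). CDT1 (ENSG00000167513.4, chromosome 16 of hg19 from 88870197 to 88875666) brings MCM2 to MCM7 to the origin. CDT1 stood at 88.5, 117 and 122 CPM in EGFP replicates 1 to 3 and at 94.0, 90.2 and 96.7 CPM in OmoMYC replicates 1 to 3. EGFP replicate 1 lay below all OmoMYC libraries while the other EGFP replicates were above them, and the mean went from 109 ± 18.2 to 93.6 ± 3.27 CPM (SD, n = 3 each), which is -0.22 ± 0.11 as log2 fold change with its standard error (edgeR, adjusted p = 0.112). It was called without EGFP replicate 1, at a log2 fold change of -0.37. CDC6, the ATPase that recruits the helicase, was at -0.30 on the log2 scale (edgeR, adjusted p = 0.00240).

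Of the MCM2 to MCM7 helicase subunits, 4 of 6 were suppressed. MCM6 (ENSG00000076003.4, chromosome 2 of hg19 from 136597196 to 136634013) changed most. In EGFP replicates 1 to 3 its level was 226, 202 and 201 CPM, and in OmoMYC replicates 1 to 3 it was 135, 141 and 129 CPM. All OmoMYC libraries lay well below the EGFP libraries, and the mean went from 210 ± 14.3 to 135 ± 6.28 CPM (SD, n = 3 each), which is -0.64 ± 0.07 as log2 fold change with its standard error (edgeR, adjusted p = 6.39e-05). MCM5 (ENSG00000100297.11, chromosome 22 of hg19 from 35796127 to 35821424) changed least. Its libraries gave 159, 188 and 207 CPM with EGFP (replicates 1 to 3) and 170, 167 and 171 CPM with OmoMYC. Again EGFP replicate 1 was below the OmoMYC libraries and the other EGFP replicates were above them, and the mean went from 185 ± 24.0 to 169 ± 2.20 CPM (SD, n = 3 each), which is -0.13 ± 0.09 as log2 fold change with its standard error (edgeR, adjusted p = 0.260). MCM4 (-0.43), MCM3 (-0.27) and MCM7 (-0.26) were suppressed, and MCM2 was at -0.13 on the log2 scale (adjusted p = 0.251, edgeR). MCM2 and MCM5 were called without EGFP replicate 1, at -0.23 and -0.24. MCM7 overlaps AP4M1 on the opposite strand and hosts MIR93, and reads of these may be counted with it.

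**Figure D2:**
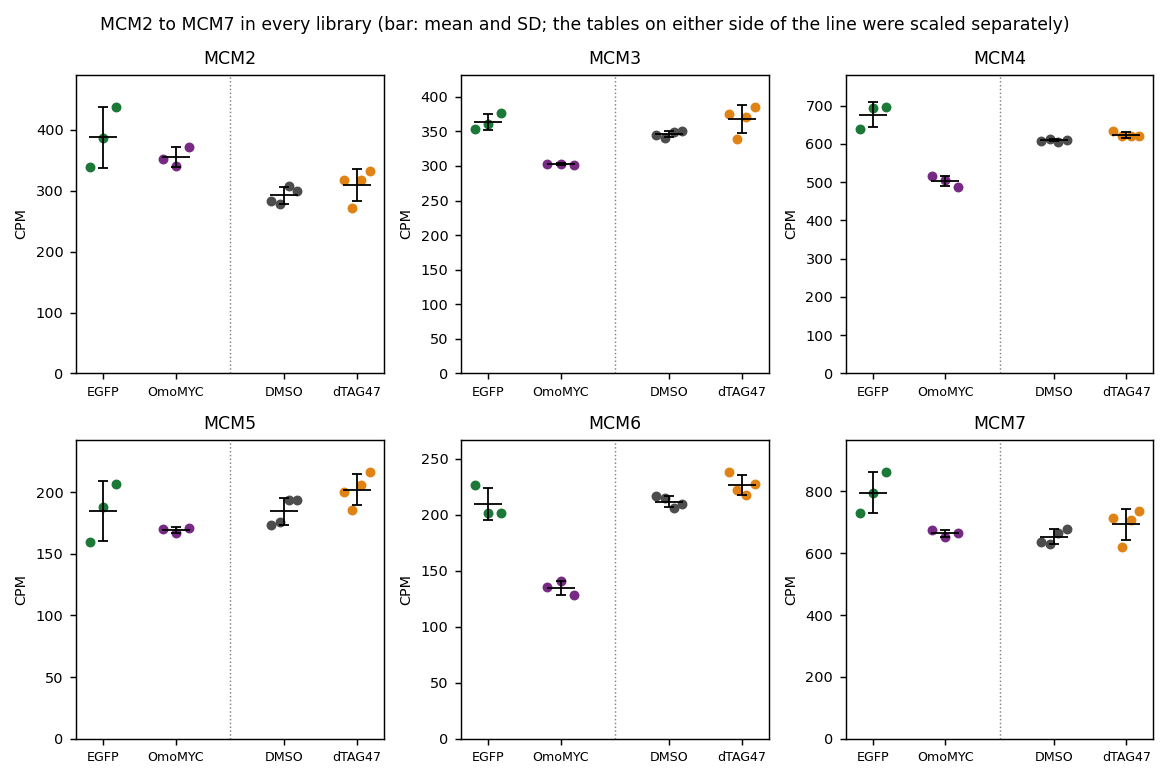
CPM (y axis, from 0) of MCM2 to MCM7 in every library, with the mean and SD of each group, for the engineered lines left of the dotted line and parental cells right of it, scaled separately. MCM6 falls from 201 CPM or more with EGFP to 141 CPM or less with OmoMYC, whereas the MCM5 and MCM2 points of the 2 groups overlap.

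Subunits that join in equal numbers in the helicase did not have equal transcript levels. Per kb of transcript (1 GENCODE transcript per gene), the EGFP line had 323 ± 27.0 CPM of MCM7, 166 ± 7.96 of MCM4, 118 ± 3.87 of MCM3, 113 ± 14.5 of MCM2, 55.9 ± 3.81 of MCM6 and 53.4 ± 6.95 of MCM5 (SD, n = 3). MCM3 and MCM2 lay within their spread of each other, as did MCM6 and MCM5. With OmoMYC the level per kb was 270 ± 4.77 for MCM7, 49.0 ± 0.635 for MCM5 and 35.9 ± 1.67 for MCM6. MCM6 was thus the lowest of the 6 with OmoMYC, but a level below MCM5 was not particular to OmoMYC. In EGFP replicate 3, MCM6 had 201 CPM and MCM5 207 CPM, from transcripts of 3753 and 3458 bases. EGFP replicate 1 had the reverse order, at 226 and 159 CPM, and EGFP replicate 2 lay between, at 202 and 188 CPM. The transcripts differ in GC content (43.2% for MCM6 and 56.3% for MCM5), and these levels were not corrected for it. The lowest levels per kb among all members in the EGFP line were those of MCM8 (5.40 ± 0.405), a helicase of break repair that is no part of the hexamer, GINS4 (7.04 ± 1.19) and ORC4 (8.39 ± 1.20).

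**Figure D3:**
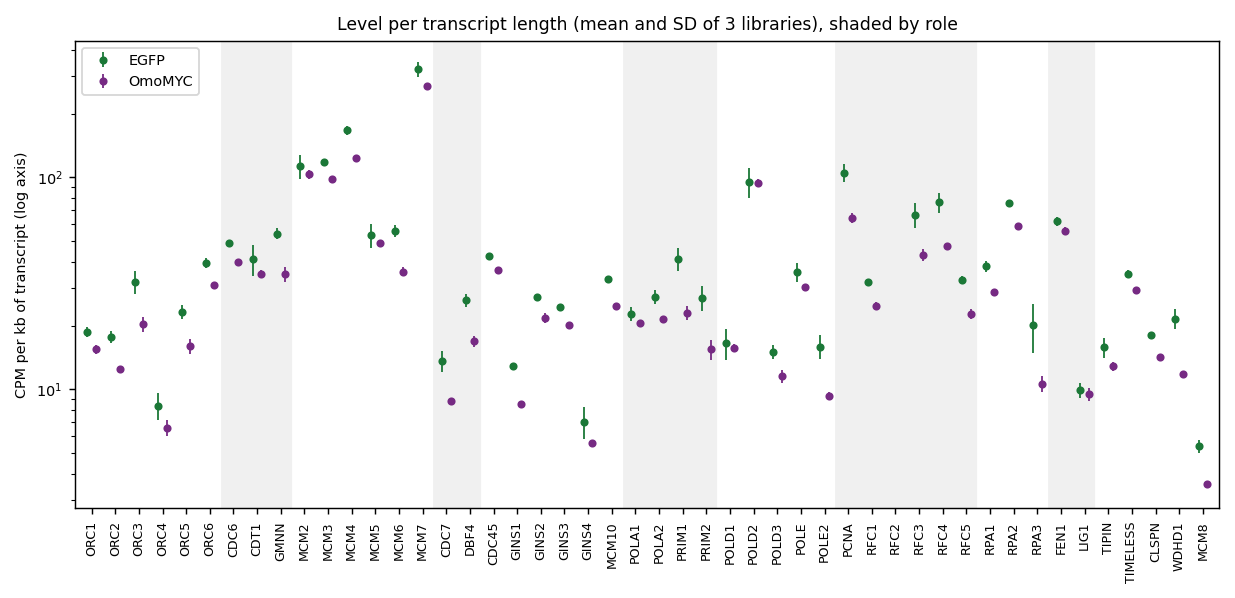
Mean CPM per kb of transcript (log y axis) of each member in the EGFP and OmoMYC lines, with the SD of 3 libraries and shading by role. MCM7 has the highest level, 323 with EGFP, and MCM8 the lowest, 5.40.

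Both subunits of the firing kinase, which phosphorylates MCM proteins, were suppressed to nearly the same degree. DBF4 (ENSG00000006634.3, chromosome 7 of hg19 from 87505531 to 87538868) is the regulatory subunit. Replicates 1 to 3 had 101, 99.3 and 88.7 CPM of DBF4 with EGFP and 65.8, 60.5 and 58.5 CPM with OmoMYC. The groups were separate, and the mean went from 96.5 ± 6.84 to 61.6 ± 3.77 CPM (SD, n = 3 each), which is -0.65 ± 0.08 as log2 fold change with its standard error (edgeR, adjusted p = 0.000108). CDC7 (ENSG00000097046.8, chromosome 1 of hg19 from 91966408 to 91991321) is the catalytic subunit. For CDC7, EGFP replicates 1 to 3 held 49.0, 42.8 and 39.4 CPM and OmoMYC replicates 29.3, 27.8 and 28.3 CPM. The OmoMYC libraries differed little among themselves, and the mean went from 43.7 ± 4.84 to 28.5 ± 0.773 CPM (SD, n = 3 each), which is -0.62 ± 0.09 as log2 fold change with its standard error (edgeR, adjusted p = 0.000327). DBF4 overlaps SLC25A40 on the opposite strand and has 3 annotated pseudogenes, so its counts may be shared.

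All 6 helicase activation genes were suppressed. GINS1 (ENSG00000101003.8, chromosome 20 of hg19 from 25371644 to 25433336) changed most in this group. GINS1 stood at 43.9, 41.6 and 42.3 CPM in EGFP replicates 1 to 3 and at 28.5, 27.5 and 28.9 CPM in OmoMYC replicates 1 to 3. Replicates were tight in both groups, and the mean went from 42.6 ± 1.19 to 28.3 ± 0.731 CPM (SD, n = 3 each), which is -0.59 ± 0.07 as log2 fold change with its standard error (edgeR, adjusted p = 0.000108). CDC45 (ENSG00000093009.5, chromosome 22 of hg19 from 19466980 to 19508135), which with GINS and MCM2 to MCM7 forms the moving helicase, changed least. In EGFP replicates 1 to 3 its level was 78.3, 80.5 and 81.8 CPM, and in OmoMYC replicates 1 to 3 it was 67.0, 68.5 and 70.3 CPM. The groups were separate by a few CPM, and the mean went from 80.2 ± 1.77 to 68.6 ± 1.67 CPM (SD, n = 3 each), which is -0.23 ± 0.07 as log2 fold change with its standard error (edgeR, adjusted p = 0.0156), although the call was lost without OmoMYC replicate 1 (adjusted p = 0.0836). MCM10 (-0.41), GINS4 (-0.33), GINS2 (-0.33) and GINS3 (-0.28) lay between them. GINS4 is the least certain of these, since its groups overlapped and it lost the call without any 1 of 4 libraries (EGFP replicate 2 and each OmoMYC replicate, adjusted p up to 0.107, edgeR).

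Within polymerase alpha-primase, the primase subunits and the catalytic polymerase subunit differed in the size of their change. PRIM1 and PRIM2, the primase subunits, were at -0.84 and -0.81, and POLA2, the accessory subunit, was at -0.35, all suppressed. POLA1 (ENSG00000101868.6, chromosome X of hg19 from 24711990 to 25015103) is the catalytic polymerase subunit. Its libraries gave 135, 122 and 117 CPM with EGFP (replicates 1 to 3) and 115, 114 and 110 CPM with OmoMYC. The groups were separate by 1.78 CPM, and the mean went from 124 ± 9.49 to 113 ± 2.49 CPM (SD, n = 3 each), which is -0.14 ± 0.07 as log2 fold change with its standard error (edgeR, adjusted p = 0.134). It was called without EGFP replicate 3, at -0.22. PRIM2 shares its locus with the pseudogene PRIM2BP on the same strand, and reads of these copies may not be told apart. The difference between subunits was not tested.

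Of polymerases delta and epsilon, POLE2, POLD3 and POLE were suppressed. POLE2 (ENSG00000100479.8, chromosome 14 of hg19 from 50110273 to 50155140) is the second subunit of polymerase epsilon, which copies the leading strand. Replicates 1 to 3 had 30.9, 24.3 and 25.6 CPM of POLE2 with EGFP and 15.6, 16.4 and 15.2 CPM with OmoMYC. OmoMYC values lay far below EGFP values, and the mean went from 26.9 ± 3.49 to 15.8 ± 0.612 CPM (SD, n = 3 each), which is -0.77 ± 0.10 as log2 fold change with its standard error (edgeR, adjusted p = 0.000175). POLD3, an accessory subunit of polymerase delta, was at -0.38 (adjusted p = 0.00370, edgeR), and POLE, the catalytic epsilon subunit, at -0.24 (adjusted p = 0.0238). POLE lost the call without EGFP replicate 2 or OmoMYC replicate 1 (adjusted p up to 0.0815). POLD1 and POLD2 were described above.

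All 5 clamp and clamp loader genes in the table were suppressed. PCNA (ENSG00000132646.6, chromosome 20 of hg19 from 5095599 to 5107272) is the sliding clamp that holds polymerases on DNA. For PCNA, EGFP replicates 1 to 3 held 147, 135 and 121 CPM and OmoMYC replicates 82.3, 86.7 and 77.8 CPM. The groups did not overlap, and the mean went from 134 ± 12.8 to 82.3 ± 4.43 CPM (SD, n = 3 each), which is -0.71 ± 0.08 as log2 fold change with its standard error (edgeR, adjusted p = 8.21e-05). RFC1 (ENSG00000035928.10, chromosome 4 of hg19 from 39289076 to 39367995) is the large subunit of the loader that opens the clamp. RFC1 stood at 163, 152 and 154 CPM in EGFP replicates 1 to 3 and at 123, 123 and 115 CPM in OmoMYC replicates 1 to 3. Its libraries were separate between groups, and the mean went from 156 ± 5.98 to 120 ± 4.90 CPM (SD, n = 3 each), which is -0.38 ± 0.07 as log2 fold change with its standard error (edgeR, adjusted p = 0.000986). RFC4 (-0.69), RFC3 (-0.63) and RFC5 (-0.54) changed to a degree between these. PCNA has 3 annotated pseudogenes, from which its reads may not be separated.

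The 3 subunits of RPA were all suppressed. RPA2 (ENSG00000117748.5, chromosome 1 of hg19 from 28218035 to 28241257), the middle subunit, changed least. In EGFP replicates 1 to 3 its level was 119, 121 and 121 CPM, and in OmoMYC replicates 1 to 3 it was 94.4, 95.9 and 90.6 CPM. Both groups were tight, and the mean went from 120 ± 0.792 to 93.6 ± 2.74 CPM (SD, n = 3 each), which is -0.36 ± 0.06 as log2 fold change with its standard error (edgeR, adjusted p = 0.00104). RPA1, the large DNA-binding subunit, was at -0.41 (adjusted p = 0.000713, edgeR), and RPA3 was described above.

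Okazaki fragment maturation was the only role group with no call. FEN1 (ENSG00000168496.3, chromosome 11 of hg19 from 61560383 to 61564710) is the nuclease that cuts the displaced flap. Its libraries gave 118, 125 and 132 CPM with EGFP (replicates 1 to 3) and 112, 109 and 117 CPM with OmoMYC. The groups were separate by 0.995 CPM, and the mean went from 125 ± 6.75 to 113 ± 4.35 CPM (SD, n = 3 each), which is -0.15 ± 0.07 as log2 fold change with its standard error (edgeR, adjusted p = 0.0942). It was called without EGFP replicate 1, at -0.21. LIG1 was not called with any library left out.

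All 5 genes of fork protection and repair were suppressed. TIMELESS (ENSG00000111602.7, chromosome 12 of hg19 from 56810147 to 56843210), which with TIPIN holds helicase and polymerase together, changed least. Replicates 1 to 3 had 176, 177 and 190 CPM of TIMELESS with EGFP and 153, 150 and 150 CPM with OmoMYC. The groups were separate, and the mean went from 181 ± 8.09 to 151 ± 1.73 CPM (SD, n = 3 each), which is -0.26 ± 0.06 as log2 fold change with its standard error (edgeR, adjusted p = 0.00639). MCM8 (-0.59), CLSPN (-0.34), the mediator of checkpoint signalling, and TIPIN (-0.30) were also lower. TIPIN lost the call without EGFP replicate 2 or OmoMYC replicates 1 or 3 (adjusted p up to 0.0745, edgeR). WDHD1, by contrast, had an adjusted p of at most 0.000405 with any library left out.

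Of the 8 members that were not called, 7 had transcripts with a GC content of 50% or more, POLA1 being the exception. Over the 47 members the log2 fold change correlated with the GC content of the transcript (Pearson r = 0.74 across genes, n = 47). These points share the same 6 libraries, and genes are not independent replicates. Of 14 members with a GC content of 50% or more, 7 were suppressed, with a median log2 fold change of -0.22, and of 33 members under 50%, 32 were suppressed, with a median of -0.53. The share of all genes suppressed in either GC class was not computed, so these counts have no background of like GC content. The libraries themselves differed along GC content. Across 13445 genes the deviation of a library from the mean of its experiment correlated with GC content at -0.57 in EGFP replicate 1, -0.28 in EGFP replicate 2 and -0.01 in EGFP replicate 3, and at 0.28, 0.22 and 0.45 in OmoMYC replicates 1 to 3. Thus EGFP replicates differed among themselves along GC content: all 14 GC-rich members were higher in EGFP replicate 3 than in EGFP replicate 1, as were 6 of the 33 others.

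When a trend of log2 counts on GC content and transcript length was removed from each library, an alternative chosen after the data were seen, 46 of 47 members were suppressed, beside 40.1% of 13445 genes tested in that fit. This correction shifted the median of all genes to -0.08, and the median member to -0.42. It also narrowed the differences between members: the SD of their log2 fold changes was 0.23 as counted and 0.15 after the correction. POLD1 was then at -0.56 (adjusted p = 7.56e-10, edgeR). POLD2 was then at -0.32 (adjusted p = 1.04e-06, edgeR). LIG1 was then at -0.48 (adjusted p = 2.37e-07, edgeR). The lowest value was still that of RPA3 (-0.83, adjusted p = 0.0128), followed by POLE (-0.70) and WDHD1 (-0.69). PRIM1 was at -0.51, MCM6 at -0.56, MCM2 at -0.50 and MCM5 at -0.47. TIPIN alone was not called (-0.03, adjusted p = 0.694). The order of members within a role group thus depended on this correction: MCM6 and MCM5 differed by 0.51 on the log2 scale as counted and by 0.09 after it. Among the adrenergic markers, PHOX2A (-0.45), HAND2 (-0.28) and GATA3 (-0.16) were called suppressed after the correction. ISL1 (0.83), TH (1.25) and DBH (1.06) stayed induced. Which of the fits is nearer to the RNA content of the cells was not tested.

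**Figure D4:**
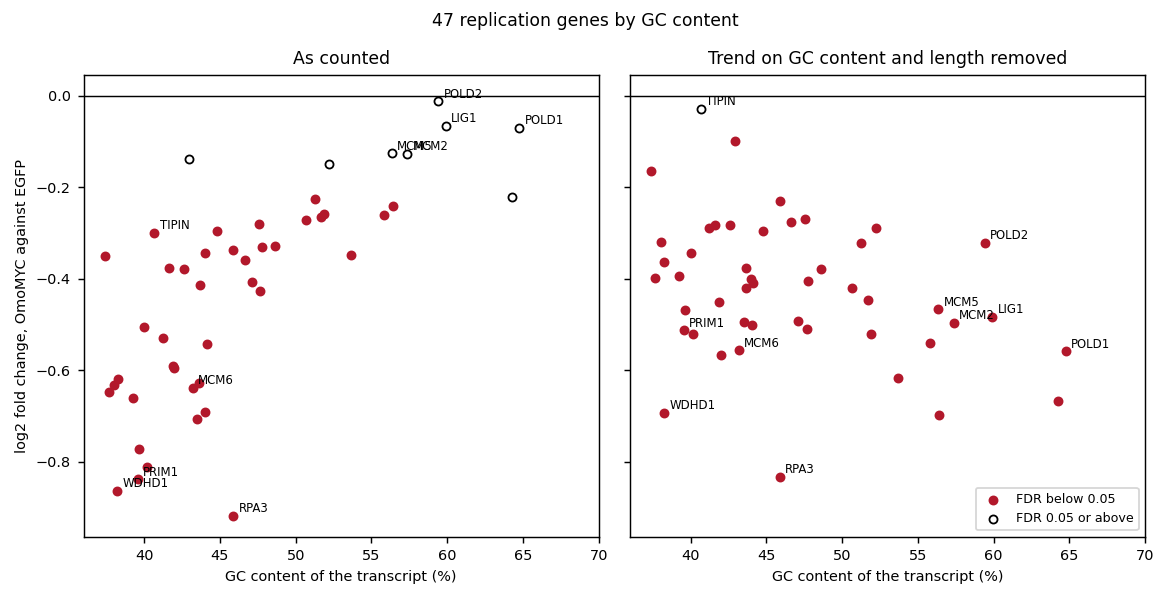
Log2 fold change with OmoMYC (y axis) of 47 members against the GC content of their transcript in percent (x axis), as counted on the left and after removal of the trend on GC content and length on the right. On the left the GC-rich members lie nearest 0 (r = 0.74), and on the right all 47 lie below 0 and all but TIPIN have an FDR below 0.05.

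Other genes of replication and of the G1/S transition were lower with OmoMYC as well, though with exceptions. Of 35 other replication genes tested, 21 were suppressed and 4 induced, with a median log2 fold change of -0.31. The largest fall was in DSCC1, a subunit of an alternative clamp loader, from 38.3 to 54.3 CPM over EGFP libraries to 22.8 to 24.2 CPM over OmoMYC libraries (log2 fold change -0.96, adjusted p = 9.36e-05, edgeR). The largest rise was in POLD4, the smallest subunit of polymerase delta, from 1.57 ± 0.189 to 2.33 ± 0.177 CPM (0.57, adjusted p = 0.0170). POLD4 and the other 3 induced genes, LRWD1, RNASEH2C and CHTF8, were not called after the correction for GC content and length, when 29 of the 35 were suppressed. Among all genes tested, 25.7% were suppressed and 27.3% induced as counted, and 40.1% were suppressed after the correction. Among 25 entries of G1/S regulators, 13 were suppressed and 1 induced, with a median of -0.18. CDK2, the kinase of S phase entry, fell most, from 54.3 ± 2.67 to 34.1 ± 1.29 CPM (-0.67, adjusted p = 5.87e-05), and CDKN1B, which encodes the CDK inhibitor p27, was the induced one (0.22, adjusted p = 0.0176). The highest fitted value was that of a second RBL1 entry at 0.261 to 0.373 CPM (0.53, adjusted p = 0.255). Of the E2F genes listed, E2F3, E2F5, E2F6 and E2F7 were suppressed, and E2F1 (-0.16), E2F2, E2F4 and E2F8 were not called. CCNE2 (-0.37) and CDKN1A (-0.34) were suppressed, and CCNE1 (0.04) was not called. After the correction for GC content and length, E2F1 (-0.58), E2F2 (-0.53) and E2F4 (-0.27) were called suppressed as well. In that fit CCNE2 (0.01), CCNE1 and E2F8 were not called.

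The parental cells gave a control for the same genes. With dTAG47, none of the 48 members was suppressed or induced (edgeR), against 0.0415% and 0.117% of all 14470 genes tested, and none was called by DESeq2 either. An unadjusted p under 0.05 (edgeR) was found for 2 of the 48 members, MCM5 and MCM6, and for 1053 of all 14470 genes tested. The median log2 fold change was 0.03, standard errors ran from 0.03 to 0.07, and every member's value plus or minus 2 standard errors lay between -0.22 and 0.24. In MCM4 and MCM6, each dTAG47 library lay above each DMSO library, as was the case for 1.87% of all genes tested.

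The members with the highest values were MCM5, CDT1 and MCM6. In DMSO replicates 1 to 4 the level of MCM5 was 174, 176, 194 and 194 CPM, and in dTAG47 replicates 1 to 4 it was 201, 186, 206 and 217 CPM. Replicate 2 of dTAG47 lay among the DMSO libraries, and the mean went from 184 ± 11.1 to 202 ± 12.8 CPM (SD, n = 4 each), which is 0.13 ± 0.05 as log2 fold change with its standard error (edgeR, adjusted p = 0.673). For CDT1 the libraries gave 73.6, 77.0, 87.0 and 84.0 CPM with DMSO (replicates 1 to 4) and 84.7, 77.0, 88.7 and 95.8 CPM with dTAG47. The groups overlapped, and the mean went from 80.4 ± 6.16 to 86.5 ± 7.86 CPM (SD, n = 4 each), which is 0.11 ± 0.07 as log2 fold change with its standard error (edgeR, adjusted p = 0.686). Replicates 1 to 4 had 217, 215, 206 and 209 CPM of MCM6 with DMSO and 238, 222, 218 and 227 CPM with dTAG47. The lowest dTAG47 library was only slightly above the highest DMSO library, and the mean went from 212 ± 4.89 to 226 ± 8.76 CPM (SD, n = 4 each), which is 0.10 ± 0.04 as log2 fold change with its standard error (edgeR, adjusted p = 0.673). All 6 subunits of the MCM2 to MCM7 ring had values above 0, from 0.03 to 0.13, without a call. The members with the lowest values were CDC7, ORC5 and GINS1. For CDC7, DMSO replicates 1 to 4 held 47.8, 45.9, 44.5 and 45.6 CPM and dTAG47 replicates 46.5, 44.7, 41.9 and 38.6 CPM. Replicates 3 and 4 of dTAG47 were the lowest libraries, and the mean went from 46.0 ± 1.37 to 42.9 ± 3.44 CPM (SD, n = 4 each), which is -0.10 ± 0.06 as log2 fold change with its standard error (edgeR, adjusted p = 0.680). ORC5 stood at 51.0, 47.97, 44.5 and 42.3 CPM in DMSO replicates 1 to 4 and at 46.0, 47.2, 41.8 and 40.1 CPM in dTAG47 replicates 1 to 4. The groups overlapped, and the mean went from 46.5 ± 3.83 to 43.8 ± 3.38 CPM (SD, n = 4 each), which is -0.09 ± 0.07 as log2 fold change with its standard error (edgeR, adjusted p = 0.717). In DMSO replicates 1 to 4 the level of GINS1 was 45.5, 45.6, 42.7 and 40.8 CPM, and in dTAG47 replicates 1 to 4 it was 44.1, 44.7, 40.2 and 36.6 CPM. Replicate 4 of dTAG47 was the lowest, and the mean went from 43.7 ± 2.31 to 41.4 ± 3.79 CPM (SD, n = 4 each), which is -0.08 ± 0.06 as log2 fold change with its standard error (edgeR, adjusted p = 0.734).

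Most replicates 1 and 2 of the parental cells were set apart from replicates 3 and 4 along GC content. The members' deviations correlated with GC content at -0.84 and -0.86 in DMSO replicates 1 and 2, at 0.64 and 0.52 in DMSO replicates 3 and 4, at -0.08 and -0.83 in dTAG47 replicates 1 and 2 and at 0.86 and 0.86 in dTAG47 replicates 3 and 4 (across 48 genes, as a description). The labels name no batch. With a factor for replicates 1 and 2 against 3 and 4, MCM5 and MCM6 were called induced, at 0.13 and 0.10, beside 2.58% of all genes in that fit. No member was called in replicates 1 and 2 alone, in which 0.0276% of genes were induced. Replicates 3 and 4 alone, with 2 libraries a group, gave 5 induced members (MCM3, MCM5, MCM7, POLE and TIMELESS) beside 2.93% of all genes, and 1 suppressed member (CDC7) beside 3.24%. After removal of the trend on GC content and length, MCM6 was called at 0.13 (adjusted p = 0.0272, edgeR), beside 0.602% of all genes, and the members ranged from -0.04 to 0.13.

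**Figure D5:**
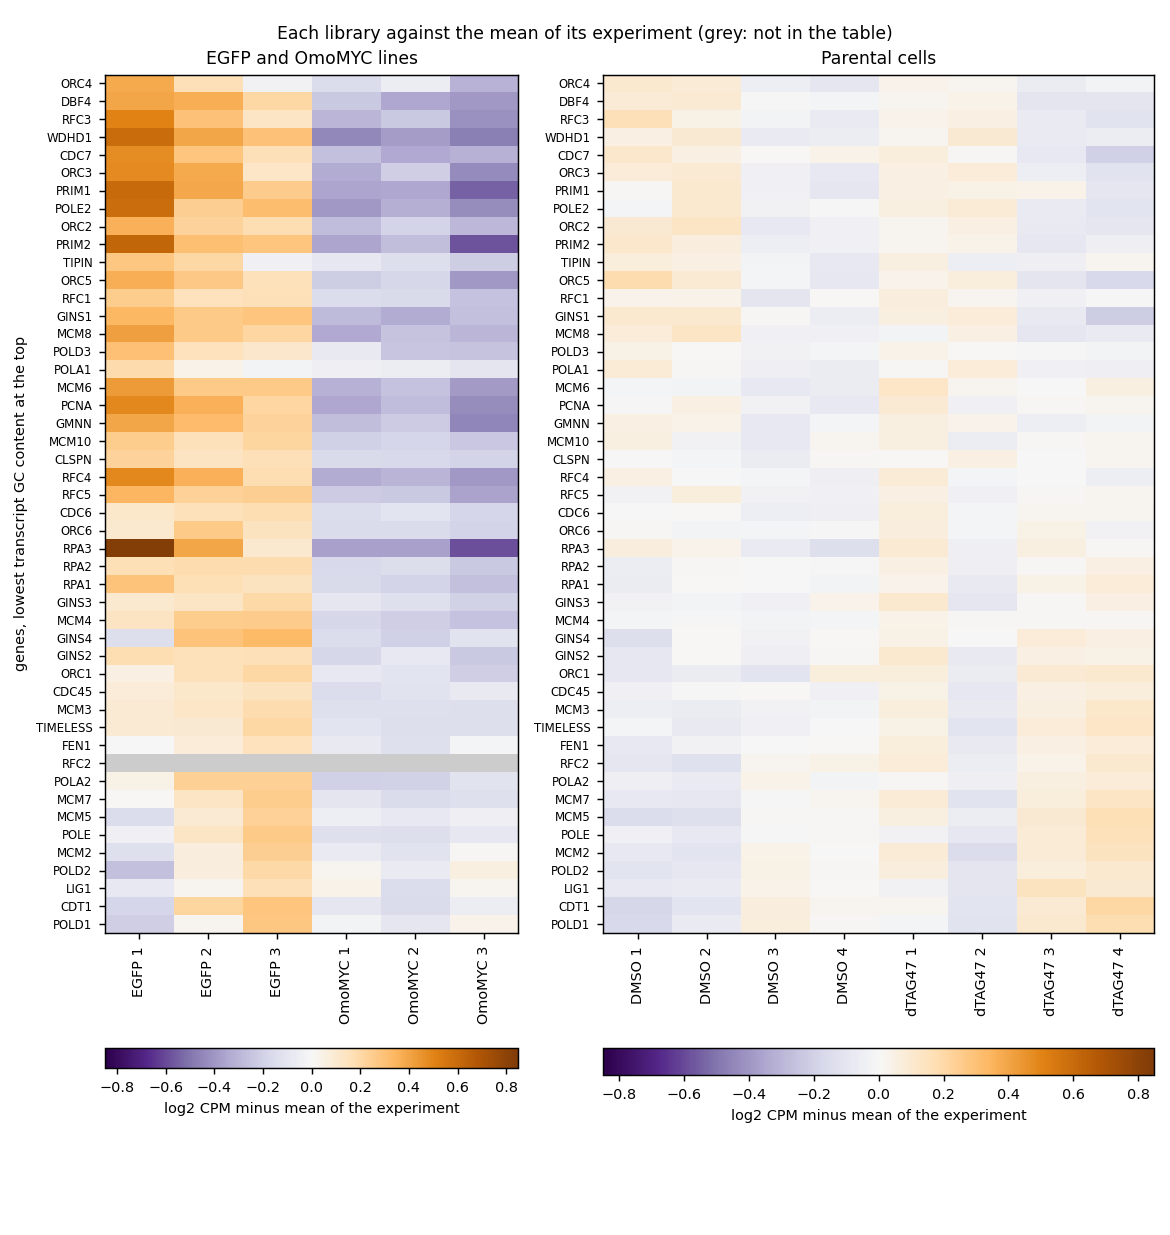
Log2 CPM of each member minus its mean over the experiment (colour), with genes in rows ordered by transcript GC content from 37.4% at the top to 64.8% at the bottom and libraries in columns. In the left panel EGFP columns are above and OmoMYC columns below the mean for most genes, with EGFP replicate 1 falling below it in GC-rich genes, and in the right panel DMSO replicates 1 and 2 and dTAG47 replicate 2 run opposite to replicates 3 and 4 along GC content.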

How the data were processed

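RNA-seq of CHP-134 cells was analysed from 14 libraries in 2 experiments, with groups taken from the labels and replicates described as biological in the study's methods. Total RNA was collected in Trizol, depleted of ribosomal RNA and sequenced on a NovaSeq. The authors removed adapters (Cutadapt), mapped to hg19 (STAR) and deposited raw counts per gene (featureCounts), per the study's methods. The versions of these tools, the annotation and strandedness are not given in the sources used here. The experiments are separate tables and were fitted separately.

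Counts were filtered by filterByExpr, scaled by TMM and tested with the robust quasi-likelihood test of edgeR 4.0.16 in R 4.3.3, with Benjamini-Hochberg adjustment over all genes tested and an FDR of 0.05. The authors used DESeq2, run here (1.42.0) as an alternative with limma-voom (limma 3.58.1), other scalings and filters, a replicate block and each library left out. CPM use TMM-scaled totals, and log2 CPM a prior count of 2. CPM per kb, GC content and coordinates use GENCODE canonical transcripts lifted to GRCh37, the sequence of hg19. The trend of log2 counts on GC content and length was removed with offsets. The plain edgeR, DESeq2 and limma-voom fits were run on simulated counts that held no trend on GC content. The fits with a block or with the trend removed were not run on simulated counts. Replicate libraries differed by more than sampling noise, and none was a duplicate.

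The members are listed by symbol with no threshold on measured values, but they and the other lists were drawn up with earlier results of these data known. Named genes are the members with the largest and smallest change of each role group in OmoMYC against EGFP, the 3 highest and lowest members in each comparison, and the largest rise and fall of the other lists. The E2F, CCNE and CDKN1 genes of the G1/S list were named in addition. Identically numbered replicates were not paired, since the correlation of their deviations fell below 0.1 for some pairs. Some markers of the lists fixed for cell identity are not reported here and were left out of their sums.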

Additional observations from a re-analysis of the deposited data

Results flagged for a closer look

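In groups of 4 libraries, a library was noted when its gap to the nearest other, as a share of the range of the group, exceeded Dixon's 95% critical value. Of 96 such groups of members in the parental cells, 6 met this rule, where chance gives about 4.8 at 1 in 20. DMSO replicate 2 stood above the others for POLE2, at 26.6 CPM, and for RFC5, at 63.6 CPM. In dTAG47 replicate 1, MCM4 was high, at 633 CPM. In dTAG47 replicate 2, CDC45 was low, at 79.4 CPM, and FEN1 was low, at 125 CPM. PRIM1 was low in dTAG47 replicate 4, at 50.4 CPM.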

How the results depend on the processing

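The count of members suppressed by OmoMYC was 39 with DESeq2, RLE factors, library size alone, no filter, a stricter filter and limma-voom. It was 40 with a replicate block, and from 34 to 45 with 1 library left out (lowest without OmoMYC replicate 1, highest without EGFP replicate 1). The count over all genes moved as well, from 3545 of 13803 in the main fit to 3867 with the block. With 1 library left out it ran from 2842 of 13950 (without OmoMYC replicate 1) to 4184 of 14009 (without EGFP replicate 3), and was 3882 of 13949 without EGFP replicate 1. The median log2 fold change of members was -0.42 after removal of the trend on GC content and length, and ran from -0.42 to -0.36 with 1 library left out. No member was called induced under any of these. POLD2 changed sign with scaling by library size alone (0.00138). With 1 library left out, POLD2 ran from -0.15 to 0.059 and POLD1 from -0.20 to 0.031, both above 0 without EGFP replicate 3. Identically numbered replicates deviated together only weakly (correlations 0.08, -0.07 and 0.29 in the engineered lines, and 0.01, 0.11, 0.10 and 0.16 in the parental cells). With a replicate block, CDT1 was the additional suppressed member. In the parental cells the block gave 2 members called induced by dTAG47, MCM5 and MCM6. Among all 14470 genes tested, 306 were induced and 362 suppressed with the block, against 17 and 6 in the main fit. With dTAG47, the count of induced members was also 2 with a factor for replicates 1 and 2 against 3 and 4, 1 after removal of the trend, and 5 in replicates 3 and 4 alone, which also gave 1 suppressed member; it was 0 with each library left out in turn. The trend removal, and the fits of parental replicates 1 and 2 or 3 and 4 alone, were chosen after the data were seen, and no library was left out under the trend removal. The causes were not tested. Other replication genes suppressed by OmoMYC numbered 18 to 25, and G1/S regulators 11 to 17, with 1 library left out. Each member had at least 458 counts in every library, and how much of its spread between libraries was sampling noise was not tested.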
